A study of Homo sapiens with 6 samples.

Results

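Cholesterol handling was examined through 30 genes in a corneal endothelial cell line depleted of NAMPT, the enzyme that makes nicotinamide mononucleotide in the salvage route to NAD. The genes were taken by symbol from the 50868 genes of the deposited expression table, and all 30 were matched. They comprise 18 enzymes that build cholesterol from acetyl-CoA, 5 regulators of the SREBP transcription factors, 5 genes of sterol uptake and intracellular movement, and 2 efflux transporters. The cells were labelled B4G12, an immortalised human corneal endothelial line, so all libraries come from a single line. The siControl group (3 libraries) had the genotype label WT and the siNAMPT group (3 libraries) the label NAMPT knockdown. Cells of both groups were treated with siRNA. The sources used here do not give the siRNA sequences, their dose or the time between transfection and harvest. Messenger RNA was isolated from total RNA and sequenced as read pairs on an Illumina NovaSeq.

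Animal cells build cholesterol from acetyl-CoA through mevalonate, the isoprenoid diphosphates, squalene and lanosterol, and most of the enzymes sit in the endoplasmic reticulum. When sterols in that membrane are low, the escort protein SCAP carries SREBP precursors to the Golgi, where a pair of proteases release the active transcription factor, and INSIG proteins hold the complex back when sterols are plentiful. Cholesterol that enters by endocytosis of lipoproteins leaves the lysosome through NPC2 and NPC1, is esterified by SOAT1 or is exported by ABC transporters under control of the oxysterol-sensing LXR receptors. Corneal endothelium is a monolayer that pumps ions and fluid out of the corneal stroma, and cholesterol is a structural component of its plasma membrane.

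NAMPT itself was measured first as a check of the labels. The unit used for levels is CPM, which scales a read count to the TMM-adjusted size of its library. NAMPT stood at 164, 170 and 184 CPM in siControl and at 26.7, 29.05 and 29.6 CPM in siNAMPT. The groups did not overlap, and the mean fell by 83.5% in siNAMPT (log2 fold change −2.60, SE 0.07). The quasi-likelihood test of edgeR gave a Benjamini-Hochberg adjusted p = 2.60e-06, and every edgeR p below is adjusted in this way. An exact two-sided permutation test gave p = 0.1, the smallest p that 3 libraries against 3 allow. Total counts were between 19510796 and 22364717 per library. Nothing in the labels states that the replicates are separate cultures. The p-values therefore describe the spread among these libraries alone, and that spread may be technical.

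The labelled cell type was compared with a list of 14 corneal endothelial markers. ALCAM, CDH2, SLC4A11 and FOXC1 were among those present, while 9 of the 14 were below 1 CPM in both groups, among them COL8A2, ZP4 and SLC4A4, and TFAP2B was at 0 in all libraries. The summed level of the list was 1331 to 1351 CPM in siControl and 1229 to 1377 CPM in siNAMPT. Squamous and basal epithelial markers summed to 6041 to 6523 CPM in siControl and to 6848 to 7725 CPM in siNAMPT. Among them KRT5 was at 2049, 1903 and 1834 CPM in siControl, and KRT12 was at 0. Of the 12 tested epithelial markers 5 were higher and 3 lower, where 20.8% of all genes tested were called higher and 21.9% lower. Fibroblast and keratocyte markers summed to 175 to 217 CPM in siControl and 269 to 330 CPM in siNAMPT (3 of 4 tested higher, KERA at 0). Vascular endothelial markers summed to 9.69 to 11.4 CPM and 13.4 to 15.3 CPM (1 of 2 tested higher, KDR and ERG at 0), and blood cell markers to 7.74 to 10.7 CPM and 18.3 to 21.6 CPM, nearly all of it CD68. The part of these marker levels in the results on cholesterol genes was not tested. In bulk RNA, fewer cells of a type and less RNA per cell cannot be told apart.

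After NAMPT siRNA most enzymes of cholesterol synthesis rose modestly, SQLE fell, and none of the other 12 genes was called higher. All 30 genes had enough counts to be tested, and 12 were called higher, 4 lower and 14 not called at an adjusted p under 0.05. Among all 15213 genes tested, 42.7% were called, 20.8% as higher and 21.9% as lower. The libraries of the groups did not overlap for 20 of the 30 genes, compared with 54.9% of all genes tested. The median log2 fold change was 0.13 over the 30 genes and 0.00 over all genes tested. The 12 rises all lay among the 18 enzymes, whose median log2 fold change was 0.38. Of the enzymes 1 was called lower and 5 were not called. Summed over the 18 enzymes, the level was 1812 to 2066 CPM in siControl and 2314 to 2401 CPM in siNAMPT. Of the 12 genes of regulation, uptake and efflux, none was called higher and 3 were called lower. All 16 calls kept their direction and their side of the threshold in every alternative fit that tested the gene. That was 15 fits for each gene except TM7SF2, which had 13 because its FPKM was below the minimum of the filtered FPKM fits.

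**Figure D1:**
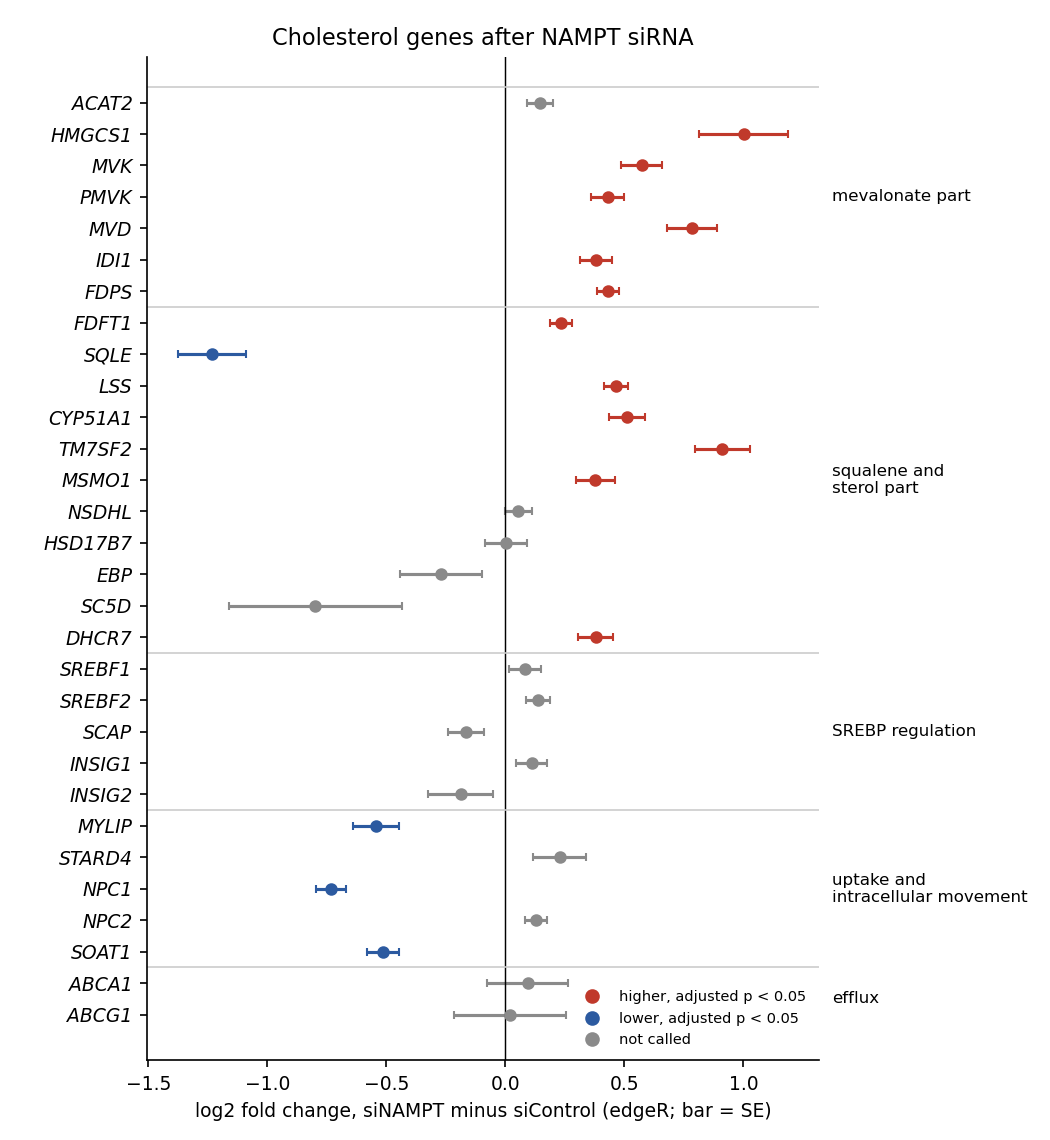
Log2 fold change of each of the 30 cholesterol genes (x axis, siNAMPT minus siControl, n = 3 libraries each; bars are the SE from edgeR), grouped by role. Red points are called higher, blue points lower and grey points are not called at an adjusted p under 0.05; the 12 red points all belong to synthesis enzymes, and SQLE lies lowest at −1.23.

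Of the 7 enzymes from acetyl-CoA to farnesyl diphosphate, 6 rose, with a median log2 fold change of 0.43 over the 7. HMGCS1, the cytosolic synthase that makes HMG-CoA, rose most. Its level was 223, 132 and 142 CPM in the siControl libraries and 349, 340 and 308 CPM in the siNAMPT libraries. All siNAMPT libraries were above all siControl libraries, and siControl replicate 1 stood above its own group. The siControl mean of 166 ± 49.97 CPM and the siNAMPT mean of 332 ± 21.5 CPM (SD, n = 3 each) gave a log2 fold change of 1.002 (SE 0.19, edgeR adjusted p = 0.00445). Without siControl replicate 1 the log2 fold change was 1.27 (adjusted p = 0.000205 in edgeR's test). HMGCS1 (ENSG00000112972) lies on chromosome 5 from 43289395 to 43313512 in GRCh38.

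MVD, which decarboxylates mevalonate diphosphate to the first isoprenoid unit, was at 62.0, 53.9 and 56.5 CPM in siControl and at 113, 87.7 and 95.6 CPM in siNAMPT. The lowest siNAMPT library was thus well above the highest siControl library, and the mean rose 1.72-fold (log2 fold change 0.78, SE 0.11, adjusted p = 0.00104 in edgeR's test). MVK, the mevalonate kinase, was at 42.7, 44.3 and 42.0 CPM in siControl and at 70.8, 63.7 and 57.6 CPM in siNAMPT. It rose 1.49-fold (log2 fold change 0.57, SE 0.09, edgeR adjusted p = 0.00168), and the siNAMPT libraries spread more widely than the controls. PMVK, the kinase of the next step, was at 29.4, 30.9 and 27.7 CPM and then at 39.7, 38.7 and 40.1 CPM, a 1.35-fold rise with edgeR adjusted p = 0.0023. Its groups were separated by more than the spread within either.

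FDPS, which joins isoprenoid units into farnesyl diphosphate, rose 1.35-fold from 158 ± 2.61 to 214 ± 4.48 CPM (SD, n = 3 each), the smallest adjusted p among the rises (0.000422 in edgeR's test). Its libraries were at 161, 159 and 156 CPM in siControl and at 210, 218 and 213 CPM in siNAMPT. IDI1, the isomerase that converts isopentenyl to dimethylallyl diphosphate, was at 119, 112 and 125 CPM and then at 144, 163 and 155 CPM (log2 fold change 0.38, SE 0.07, edgeR adjusted p = 0.00376). In neither gene did the groups overlap. ACAT2, the cytosolic thiolase that condenses acetyl-CoA at the head of the pathway, was the exception. It stood at 122, 114 and 111 CPM in siControl and at 128, 127 and 128 CPM in siNAMPT. Its groups did not overlap, but the log2 fold change of 0.15 (SE 0.06) was not called by edgeR (adjusted p = 0.0723), whereas limma on the deposited FPKM values called it (0.16, adjusted p = 0.0273).

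Promoter letters were read to show what stands upstream of the largest rises. RefSeq promoters of GRCh38.p14, from 250 bases before to 50 bases after each start site, were matched for 26 of the 30 genes; ACAT2, FDFT1, SQLE and ABCG1 were not among them. The sterol regulatory element was searched on both strands as TCACNCCAC and as CACCCCAC. The first form was in the promoter of SREBF2 alone among the 26 genes (1.49% of the 10505 tested genes with a promoter), and the second, which can overlap the first, in those of SREBF2 and ABCA1 (3.52%). The E-box CACGTG was in 5 of the 26, those of LSS, SC5D, SCAP, INSIG1 and ABCA1 (12.4%). The CCAAT box, read as CCAAT or on the other strand as ATTGG, was in 19 of the 26 (73.1%), compared with 43.4% of tested genes. It was in 9 of the 11 called higher and in MYLIP and SOAT1, which were called lower. NSDHL, HSD17B7, EBP, SC5D, SREBF2, INSIG1, STARD4 and NPC2, which were not called, held it too, so the box was not particular to the rises. A match describes letters and not binding, and no match says only that these letters are not in the window. The stretches below are from the 3 largest rises and from SREBF2, whose product activates these enzymes; capitals mark the CCAAT boxes on either strand and, in SREBF2, the sterol element. They are written 5′ to 3′ on the gene's strand, from chr5:43313488-43313587 (minus), chr11:65111778-65111822 (plus), chr16:88663152-88663270 (minus) and chr22:41832952-41833023 (plus).
HMGCS1: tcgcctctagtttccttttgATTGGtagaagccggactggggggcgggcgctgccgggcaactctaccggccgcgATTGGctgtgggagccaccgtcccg
TM7SF2: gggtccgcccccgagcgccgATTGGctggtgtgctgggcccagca
MVD: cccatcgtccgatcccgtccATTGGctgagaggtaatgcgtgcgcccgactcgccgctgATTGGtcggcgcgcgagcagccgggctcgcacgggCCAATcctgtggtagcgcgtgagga
SREBF2: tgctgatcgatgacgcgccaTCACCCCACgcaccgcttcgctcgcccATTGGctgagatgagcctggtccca

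Of the 11 enzymes from squalene synthase to cholesterol, 6 rose and 1 fell, with a median log2 fold change of 0.23. TM7SF2, a sterol reductase that removes the double bond left by CYP51A1, rose most of these. It was at 5.69, 5.76 and 5.34 CPM in siControl and at 11.7, 10.1 and 9.87 CPM in siNAMPT. The groups were far apart, and the mean rose 1.88-fold (log2 fold change 0.91, SE 0.12, adjusted p = 0.000775 in edgeR's test). Its level is low, and on the log2(FPKM + 1) scale without a filter the difference was 0.36 (adjusted p = 0.00678 in limma). CYP51A1, the cytochrome that demethylates lanosterol, was at 93.7, 95.7 and 95.3 CPM and then at 122, 148 and 136 CPM, a 1.43-fold rise (log2 fold change 0.51, SE 0.08, edgeR adjusted p = 0.00156). All siNAMPT libraries lay above the controls. Its pseudogene CYP51A1P2 was also called higher (from 4.08 to 5.98 CPM, edgeR adjusted p = 0.0135), and reads could have been shared between such near-identical copies in counting.

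LSS, which cyclises squalene epoxide to lanosterol, was at 116, 116 and 109 CPM in siControl and at 157 CPM in each siNAMPT library. It rose 1.38-fold (log2 fold change 0.46, SE 0.05, adjusted p = 0.000426 in edgeR's test). DHCR7, the reductase of the last step in one branch of the pathway, was at 225, 186 and 202 CPM and then at 269, 261 and 269 CPM (1.30-fold, log2 fold change 0.38, SE 0.07, edgeR adjusted p = 0.00523). MSMO1, a methylsterol oxidase, was at 140, 131 and 137 CPM and then at 161, 198 and 171 CPM, also 1.30-fold (edgeR adjusted p = 0.00889). In all of these the siNAMPT libraries were above the siControl libraries. FDFT1, the squalene synthase that commits farnesyl diphosphate to sterols, had the smallest called rise, 1.17-fold, from 293 ± 8.63 to 344 ± 5.38 CPM (SD, n = 3 each; edgeR adjusted p = 0.00577).

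SQLE was the enzyme that fell. It encodes squalene epoxidase, which adds the oxygen that later becomes the hydroxyl group of cholesterol and is a rate-limiting step of the pathway. SQLE (ENSG00000104549) lies on chromosome 8 from 124998497 to 125022283 in GRCh38. Its level was 204, 143 and 144 CPM in siControl and 75.4, 68.8 and 64.9 CPM in siNAMPT. The groups did not overlap, and siControl replicate 1 again stood above the other controls. The mean fell 2.35-fold, from 164 ± 34.7 to 69.7 ± 5.32 CPM (SD, n = 3 each). The log2 fold change was −1.23 (SE 0.14, edgeR adjusted p = 0.000555). Without siControl replicate 1 the log2 fold change was −1.05 (edgeR adjusted p = 0.000383). The enzymes directly before and after it, FDFT1 and LSS, were both called higher.

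**Figure D2:**
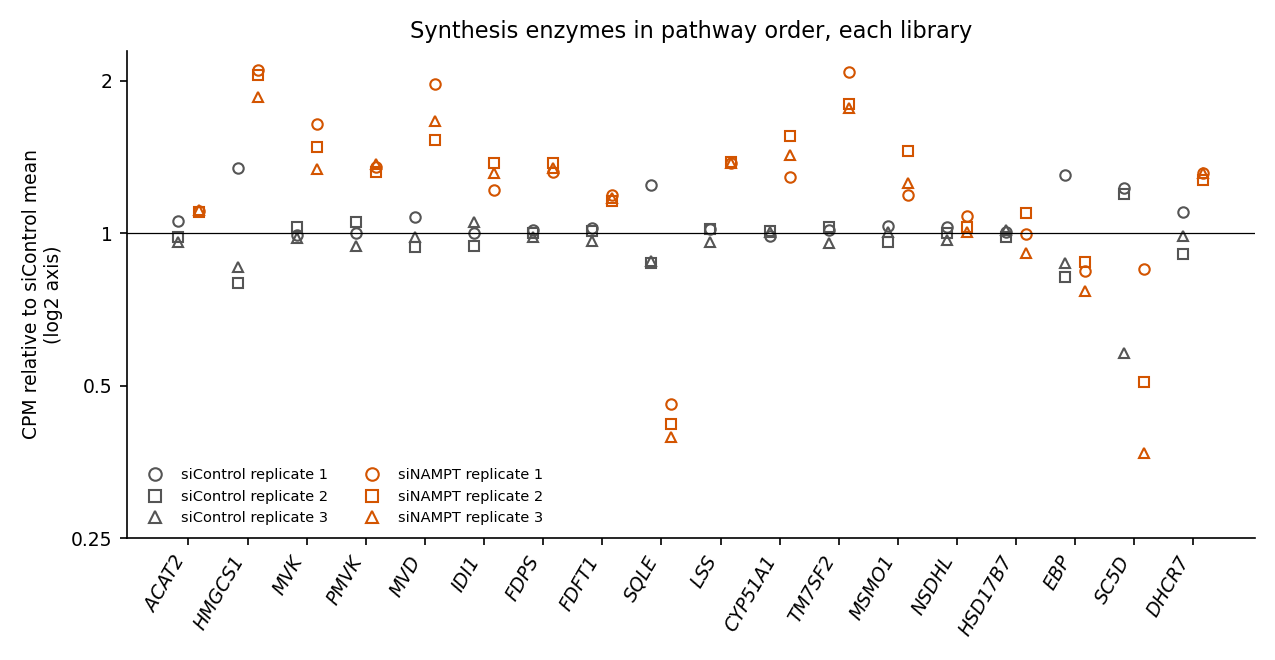
Level of each of the 18 synthesis enzymes in every library, as CPM divided by the siControl mean of that gene (y axis, log2 scale), in pathway order from ACAT2 to DHCR7; grey symbols are siControl and orange symbols siNAMPT, with 1 symbol shape per replicate number. The orange symbols lie above the grey in 13 genes and below them in SQLE, and SC5D has the widest scatter within both groups.

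The other 4 enzymes of the sterol part were not called. NSDHL, a dehydrogenase that helps remove methyl groups from sterols, was at 106, 103 and 100 CPM in siControl and at 111, 106 and 104 CPM in siNAMPT (log2 fold change 0.05, SE 0.06, edgeR adjusted p = 0.477). HSD17B7, the keto-reductase of the same demethylation, was at 19.0, 18.6 and 19.2 CPM and at 18.9, 20.8 and 17.4 CPM (0.00, SE 0.09, edgeR adjusted p = 0.981). In both genes the groups overlapped. The level of HSD17B7 is uncertain because its pseudogene HSD17B7P2, called higher from 1.18 to 2.07 CPM, could share reads with it. EBP, an isomerase that moves a double bond in the sterol ring, was at 52.6, 33.1 and 35.3 CPM and at 34.0, 35.4 and 31.0 CPM. Its log2 fold change of −0.27 (SE 0.17, edgeR adjusted p = 0.244) rests on siControl replicate 1, without which it was −0.03 (edgeR adjusted p = 0.803).

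SC5D, the sterol desaturase that acts just before DHCR7, varied more between replicates than any other enzyme. It was at 44.9, 43.7 and 21.2 CPM in siControl and at 31.1, 18.6 and 13.5 CPM in siNAMPT. The third siControl library fell inside the siNAMPT range, and the log2 fold change of −0.80 (SE 0.36) was not called (edgeR adjusted p = 0.115). It was called lower when siControl replicate 3 was left out (−1.07, edgeR adjusted p = 0.0355) and when siNAMPT replicate 1 was left out (−1.19, edgeR adjusted p = 0.0391). With replicate number as a block it was also called lower (−0.81, edgeR adjusted p = 0.0110), although the numbers do not mark shared origin in the labels.

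Spread within a group was set against that of other genes. Among 9733 genes with a mean of at least 10 CPM, the SD of log2 CPM over the siControl libraries had a median of 0.08 and a 95th percentile of 0.35. Of the 27 cholesterol genes at that level, 3 lay above that percentile in siControl, SC5D (SD 0.61), HMGCS1 (0.41) and EBP (0.36). In siControl replicate 1 HMGCS1 was 1.63 times, EBP 1.54 times and SQLE 1.42 times the mean of the other siControl libraries. SC5D was 1.38 times that mean in replicate 1 and 1.32 times in replicate 2. Its spread came from a low siControl replicate 3, at 0.48 times the mean of the others. Every remaining synthesis enzyme lay between 0.98 times (CYP51A1) and 1.16 times (DHCR7) in siControl replicate 1. In siNAMPT the median SD was 0.10, the 95th percentile 0.36, and SC5D (0.61) was the cholesterol gene at that level above it. FDPS, at the other end, had an SD of log2 CPM of 0.02 in siControl and 0.03 in siNAMPT.

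None of the 5 SREBP regulators was called. SREBF2, whose product is the main activator of the synthesis genes, was at 386, 393 and 367 CPM in siControl and at 437, 412 and 410 CPM in siNAMPT. The groups did not overlap, and the log2 fold change of 0.14 (SE 0.05) just missed the threshold (edgeR adjusted p = 0.0633). SREBF2 was called higher in 5 of the alternatives, for example by limma on log2(FPKM + 1) with a difference of 0.15 (adjusted p = 0.0260). SREBF1, which favours fatty acid genes, was at 379, 380 and 373 CPM and at 438, 373 and 387 CPM, overlapping between groups (0.08, SE 0.07, edgeR adjusted p = 0.349).

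SCAP, the sterol-sensing escort of the SREBPs, was at 70.3, 72.7 and 66.2 CPM in siControl and at 66.5, 57.9 and 62.1 CPM in siNAMPT (log2 fold change −0.17, SE 0.07, edgeR adjusted p = 0.111). The highest siNAMPT library lay inside the siControl range. INSIG1, a retention protein that is itself induced by SREBPs, was at 45.1, 49.5 and 45.2 CPM and at 51.4, 49.9 and 49.7 CPM (0.11, SE 0.07, edgeR adjusted p = 0.217). Its siNAMPT values were all slightly above the controls. INSIG2, the related protein whose transcription does not depend on SREBPs, was at 19.6, 23.3 and 22.6 CPM and at 21.3, 15.5 and 20.7 CPM, with overlapping groups (−0.19, SE 0.14, edgeR adjusted p = 0.305).

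A separate list, which holds none of these 5 regulators, covers genes of SREBP transport, cleavage and sterol-regulated degradation. Of its 16 tested genes, 5 were higher, 5 lower and 6 not called, with a median log2 fold change of 0.06. Over all genes tested, 20.8% were called higher and 21.9% lower. MBTPS2, the site-2 protease that releases active SREBP, was at 19.1, 18.9 and 21.0 CPM in siControl and at 6.75, 8.43 and 7.40 CPM in siNAMPT. It fell 2.61-fold without overlap (log2 fold change −1.39, SE 0.11, adjusted p = 0.000109 in edgeR's test), and by 0.77 on the log2(FPKM + 1) scale. SEC24D, a cargo subunit of the COPII coat, fell 2.52-fold, from 44.8 to 17.8 CPM (edgeR adjusted p = 3.22e-05). ERLIN2, a scaffold for degradation in the endoplasmic reticulum, rose 1.88-fold, from 37.4 to 70.4 CPM, and RNF145, a sterol-responsive ubiquitin ligase, rose 1.75-fold, from 45.7 to 79.8 CPM. Further called genes were chosen for mention after their values were seen. They are MBTPS1, the site-1 protease, with a log2 fold change of 0.25, RNF139 (0.60), ERLIN1 (0.48), SAR1B (−0.80) and UBE2G2 (−0.86).

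**Figure D3:**
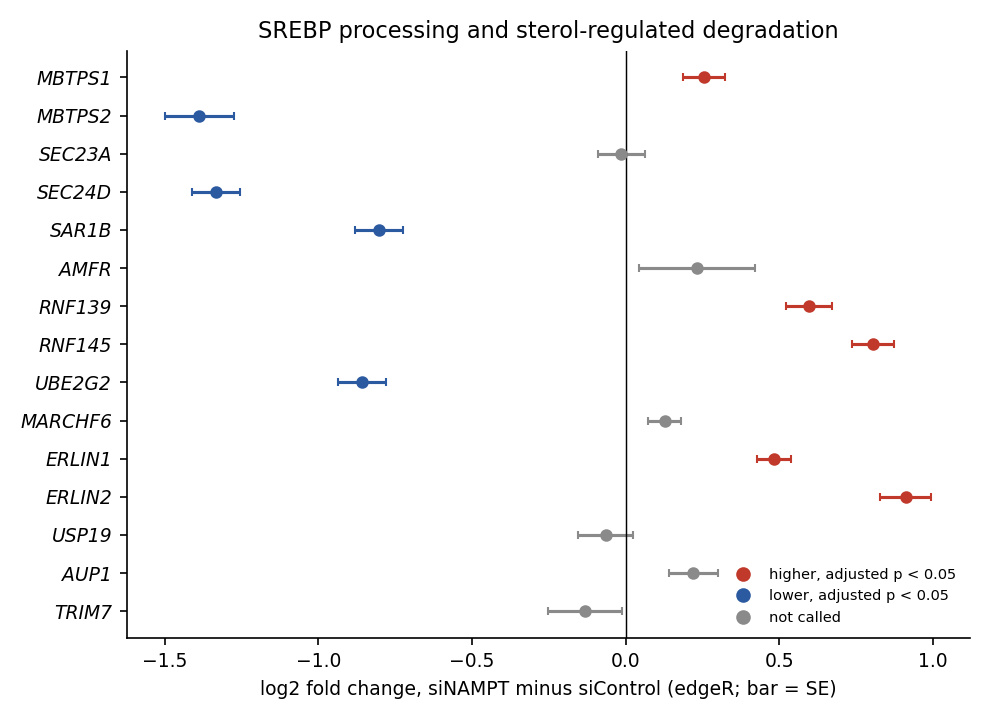
Log2 fold change (x axis, siNAMPT minus siControl, n = 3 libraries each; bars are the SE from edgeR) of 15 of the 16 tested genes that transport and cleave SREBPs or degrade sterol-regulated enzymes. The proteases MBTPS1 (0.25) and MBTPS2 (−1.39) lie on opposite sides of 0.

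Among the 5 genes of uptake and intracellular movement, 3 fell and none was called higher. NPC1, the lysosomal membrane protein that passes cholesterol out of late endosomes, was at 88.3, 88.2 and 87.5 CPM in siControl and at 56.5, 51.6 and 50.9 CPM in siNAMPT. The groups were far apart relative to their spread, and the mean fell 1.66-fold, from 88.0 ± 0.429 to 53.0 ± 3.04 CPM (SD, n = 3 each; log2 fold change −0.73, SE 0.06, adjusted p = 0.000147 in edgeR's test). This was the smallest adjusted p of the 30 genes. NPC2, the soluble partner that hands cholesterol to NPC1, was at 239, 239 and 237 CPM and at 265, 254 and 263 CPM. Its groups did not overlap in the upward direction, but the log2 fold change of 0.13 (SE 0.04) was not called by edgeR (adjusted p = 0.0521). NPC2 was called higher in 4 alternatives and not in the other 11. Limma on log2(FPKM + 1) called it, with a difference of 0.14 (adjusted p = 0.0172). DESeq2 left it uncalled (0.13, adjusted p = 0.112). The rise shrank to 0.03 (edgeR adjusted p = 0.470) in the fit that corrects for GC content and length.

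SOAT1, the enzyme that esterifies cholesterol for storage, was at 50.1, 53.5 and 54.2 CPM in siControl and at 37.1, 38.4 and 35.0 CPM in siNAMPT. It fell 1.43-fold without overlap (log2 fold change −0.51, SE 0.07, adjusted p = 0.00102 in edgeR's test). MYLIP, a ubiquitin ligase that targets lipoprotein receptors for degradation, was at 22.8, 22.1 and 25.5 CPM and at 15.5, 15.1 and 17.7 CPM. It fell 1.46-fold, again without overlap (log2 fold change −0.54, SE 0.10, edgeR adjusted p = 0.00371). STARD4, a cytosolic sterol carrier, was at 32.3, 33.9 and 37.3 CPM and at 35.4, 46.6 and 39.2 CPM, with overlapping groups (0.23, SE 0.11, edgeR adjusted p = 0.141). STARD4 was called higher (0.44, edgeR adjusted p = 0.00274) once the fit held a correction for GC content and length. In genome position NPC1 lies on chromosome 18 from 23506184 to 23586898 and SOAT1 on chromosome 1 from 179293714 to 179358680 in GRCh38.

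The 3′ UTRs of the genes were searched for TACCATA, a 7-base word that an earlier analysis of these same data had linked to lower genes, so the pattern is no independent support here. One annotated transcript per gene was used, and the sense strand alone was read. TACCATA was in 7.77% of 12084 tested coding genes. Genes with it had a median log2 fold change of −0.32, and 48.5% of them were called lower and 9.48% higher. Genes without it had a median of −0.0039, and 23.0% of them were called lower. UTR length, 5039 bases in SOAT1, was not taken into account. Of the 30 cholesterol genes 3 held it, SQLE (2 copies), NPC1 and SOAT1, and all 3 were called lower. MYLIP, the remaining lower gene, held neither it nor the 6-base core ACCATA, which overlaps it. The core was in 22.5% of the tested genes and in 8 of the 30, among them FDFT1, CYP51A1 and MSMO1, which rose. All 5 lower genes of SREBP processing held the core, as did MARCHF6, which was not called. In further lists TACCATA was, for example, in ME1, which rose, and in STARD3NL and VLDLR, which fell. The part of the word in these falls was not tested. The sites in NPC1 and SOAT1 are shown, while those in SQLE, which also fell, are not printed. Capitals mark the word, which begins at base 373 of the NPC1 UTR and at base 960 of the SOAT1 UTR (GENCODE 29, 5′ to 3′).
NPC1: cacaagttctaTACCATAtttttagtgac
SOAT1: tagtgagtctgTACCATAagtattaatca

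Neither efflux transporter was called, and both were scarce. ABCA1, which loads cholesterol onto apolipoprotein particles, was at 3.71, 4.91 and 5.25 CPM in siControl and at 5.54, 4.42 and 4.85 CPM in siNAMPT (log2 fold change 0.09, SE 0.17, edgeR adjusted p = 0.684). ABCG1, which exports sterol to mature lipoproteins, was at 1.88, 1.70 and 1.70 CPM and at 2.30, 1.27 and 1.76 CPM (0.02, SE 0.24, edgeR adjusted p = 0.956). In both genes the groups overlapped. In a list of LXR receptors and further targets, 2 of 9 tested genes rose (22.2%) and 1 fell (11.1%). The shares over all genes tested were 20.8% higher and 21.9% lower. Without siNAMPT replicate 1, 1 rise was left, because RXRB lost its call (edgeR adjusted p = 0.0620). RXRA, the partner of the LXR receptors, rose from 403 to 652 CPM (log2 fold change 0.70, edgeR adjusted p = 0.000149).

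As deposited FPKM, the 30 genes spanned from 45.8 ± 0.199 for NPC2 to 0.234 for ABCG1 in siControl. The lengths that these FPKM imply are not transcript lengths for every gene, so the order between genes is uncertain. NSDHL (36.9), SREBF2 (28.8), MSMO1 (28.7) and SQLE (28.2) followed NPC2 among the controls. The order of neighbours such as SREBF2, MSMO1 and SQLE is not resolved, since SQLE alone had an SD of 5.84 FPKM. In siNAMPT HMGCS1 reached 48.4 ± 2.71 FPKM, close to NPC2 at 50.7 ± 1.05 FPKM, from 23.8 ± 7.06 FPKM in siControl. SQLE in siNAMPT was at 12.2 ± 0.792 FPKM, below FDFT1 (20.5 FPKM) and above LSS (9.77 FPKM). TM7SF2, despite its large relative rise, was at 0.465 FPKM in siControl and 0.886 FPKM in siNAMPT, above ABCA1 and ABCG1 alone. That place is uncertain. Its 5.60 CPM and 0.465 FPKM in siControl imply a length beyond its whole locus, chromosome 11 from 65111845 to 65116384.

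**Figure D4:**
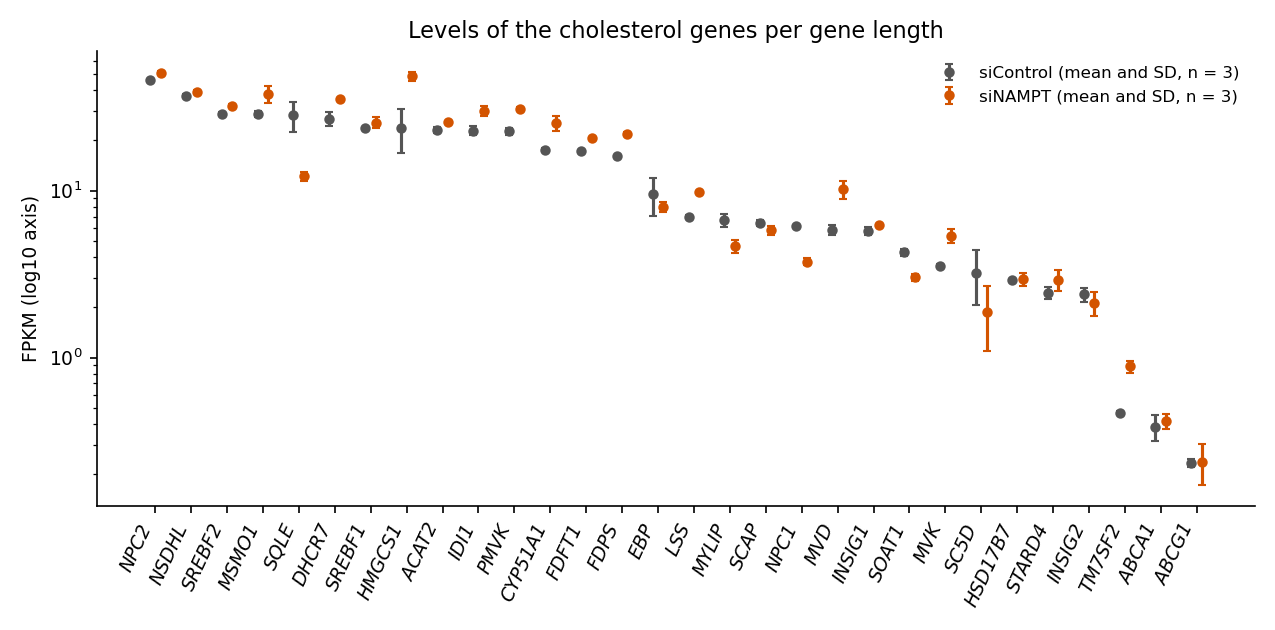
Level of the 30 cholesterol genes as deposited FPKM (y axis, log10 scale), ordered by the siControl mean. Points are means and bars the SD over 3 libraries. The length behind each FPKM is uncertain, and so is the order between genes. NPC2 at 45.8 FPKM is highest and ABCG1 at 0.234 FPKM lowest in siControl (grey), and HMGCS1 and SQLE show the widest gaps between the siControl and siNAMPT (orange) points among the genes above 20 FPKM in siControl.

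Neighbouring pathways were read from further lists, to be set beside the 20.8% called higher and 21.9% called lower over all genes tested. In the isoprenoid branch, which takes farnesyl diphosphate to ubiquinone, dolichol and prenylated proteins, 2 of 19 tested genes rose, 9 fell and the median log2 fold change was −0.20. RCE1, the protease that trims prenylated proteins, fell from 65.1 to 43.6 CPM (log2 fold change −0.58, edgeR adjusted p = 0.00163), and RABGGTB, a subunit of the Rab prenyltransferase, from 47.1 to 34.5 CPM. COQ5, a ubiquinone methyltransferase, rose from 38.8 to 54.9 CPM. The other rise, of COQ2, was lost without siControl replicate 2, siControl replicate 3, siNAMPT replicate 2 or siNAMPT replicate 3, which left 1 rise in each case. Of 16 lipogenic targets linked to SREBP1, 6 rose and 4 fell, with a median of 0.21. ME1, the cytosolic malic enzyme that makes NADPH, rose 2.31-fold, from 25.004 to 57.8 CPM, and GPAM, the first acyltransferase of triglyceride synthesis, fell from 28.3 to 18.5 CPM.

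Among 12 tested lipoprotein receptors and adaptors, 2 rose and 6 fell, with a median log2 fold change of −0.37. The same shares over all genes tested, 20.8% higher and 21.9% lower, stand beside the counts in this paragraph. LRP1, a large endocytic receptor, rose 1.68-fold from 333 to 559 CPM, while LRP6, a Wnt co-receptor of the same family, fell 1.80-fold from 32.5 to 18.1 CPM. VLDLR fell from 1.14 to 0.199 CPM, a level near the 0.132 to 0.152 CPM that a count of 3 represents. Of 22 tested genes of intracellular sterol transport 7 rose and 7 fell, with a median of 0.03. STARD3NL, a late endosomal tether to the endoplasmic reticulum, fell 3.61-fold, from 141 to 39.1 CPM (log2 fold change −1.85, SE 0.06, edgeR adjusted p = 2.72e-06). GRAMD1C, a carrier of plasma membrane cholesterol, rose from 5.53 to 16.6 CPM. Of 9 listed oxysterol enzymes only 2 had enough counts to be tested; both were called higher, and both calls were lost with DESeq2 and also without siControl replicate 2, siControl replicate 3, siNAMPT replicate 2 or siNAMPT replicate 3.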

How the data were processed

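Gene expression was measured in 6 libraries, 3 siControl and 3 siNAMPT, grouped by sample title. The authors deposited whole-number counts and FPKM per gene, per the file headers. The deposited FPKM imply the same length for a gene in every library, which for TM7SF2 exceeds its locus. The builds GRCh38 and mm10 are named, per the submitters' processing notes; the gene IDs are human, 98.5% of them are in GENCODE 29, and 94.8% of the shared IDs have the same position there. The sources used here do not give the aligner, counter, strand handling or annotation release, so reads of overlapping antisense genes cannot be told apart.

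The test on counts was the two-sided quasi-likelihood F test of edgeR 4.0.16 (R 4.3.3) after filterByExpr and TMM, with no covariate, with Benjamini-Hochberg adjustment over 15213 genes and a threshold of 0.05. The SE is the size of the log2 fold change over the square root of F. Alternatives were DESeq2 1.42.0, RLE factors, other filters, limma 3.58.1 on log2(FPKM + 1) and log2(FPKM + 0.1), a replicate block, leaving out each library and, added after seeing the data, an offset for GC content and length. The model was tested on simulated data. Between replicates the chi-square per gene was 11.6 to 16.7, above sampling noise, and no libraries were identical.

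The 30 genes and all gene lists were chosen with earlier results of these data known. All 30 genes and NAMPT may be named, and from each further list up to 2 rises and 2 falls, the largest among called genes with groups not overlapping and at least 1 CPM. Of 194 symbols 193 were matched. Promoters came from RefSeq and 3′ UTRs of at least 50 bases from GENCODE 29. Some genes of the pathway and of the lists, though counted, are not reported here by name.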

Additional observations from a re-analysis of the deposited data

How the results depend on the processing

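All 16 called cholesterol genes kept direction and call in every alternative that tested them, which was 15 alternatives, or 13 for TM7SF2. The 2 fits with an FPKM minimum of 1 left out TM7SF2, ABCA1 and ABCG1. Of the 14 genes not called, 6 were called under at least 1 alternative (ACAT2, SC5D, SREBF2, SCAP, STARD4 and NPC2). The number of enzymes called lower went from 1 to 2, by the addition of SC5D, with the replicate block, and ranged from 1 to 2 when single libraries were left out (2 without siControl replicate 3 or siNAMPT replicate 1). The direction turned in 3 genes near 0, and the cause was not tested. HSD17B7 was at −0.000107 with DESeq2, −0.0093 with no filter on low counts and −0.0685 with the offset for GC content and length, and ranged from −0.0656 to 0.066 when single libraries were left out. ABCA1 ranged from −0.0422 (siControl replicate 1 left out) to 0.196 over the same fits. ABCG1 was at −0.0062 with the replicate block and −0.0306 with the offset, and ranged from −0.205 (siNAMPT replicate 1 left out) to 0.204. Over all genes, 6500 calls became 5950 with DESeq2, 6336 with the block, 7241 with the offset and 5145 to 5886 when single libraries were left out.

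The labels give both groups replicate numbers 1 to 3 but no shared origin. Deviations of same-numbered libraries correlated at 0.07, 0.0085 and 0.05, all under 0.1. Such low correlations over all genes cannot tell whether same-numbered libraries share an origin, so they were not treated as pairs in the main fit. As a hint from the data, each library correlated best with its own number except siNAMPT replicate 2, which correlated at 0.03 with siControl replicate 3. With the block 17 of the 30 genes were called, SC5D being the one added. Genes near 1 CPM, such as ABCG1, are limited by depth.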
